A study of Mus musculus with 16 samples.

Results

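The expression of 7 genes of the aryl hydrocarbon receptor (AHR) pathway was measured by bulk RNA-seq in mouse pulmonary endothelial cells (ECs) after lipopolysaccharide (LPS). The genes were the receptor Ahr, its partner Arnt, its repressor Ahrr, the cytochrome P450 genes Cyp1a1 and Cyp1b1, and the target genes Tiparp and Nqo1. They were picked by gene name from the 54532 genes of each expression table. They had been chosen with earlier results of the LPS and saline comparison known, so their values there are given as a description without a p-value. ECs were isolated from digested lung with antibody-coated magnetic beads, first by removal of cells with the leukocyte antigen CD45 and then by capture of cells with CD31. In the first experiment, male wild-type (WT) C57/BL6J mice of 8 weeks received saline (4 libraries) or 10 mg/kg LPS (6 libraries) into the trachea. In the second experiment, Fgfr1 loxP/loxP mice (3 libraries) and their Fgfr1 iΔEC/iΔEC littermates (3 libraries) received tamoxifen and then 2 mg/kg LPS into the trachea. The iΔEC/iΔEC mice carry a tamoxifen-dependent Cre under the VE-cadherin promoter, which is active in ECs, so Fgfr1 is lost only in cells where that promoter and the drug have acted. No group of the second experiment received saline. All values of n are numbers of libraries. RNA was collected 24 h after LPS or saline in every group. The 16 libraries held between 13478726 and 19043015 reads on genes.

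AHR is a receptor that binds small molecules, among them dioxins, the hydrocarbons of smoke and products of tryptophan. Without a ligand it is held in the cytosol by HSP90 and its co-chaperones. With a ligand it moves to the nucleus, pairs with ARNT and binds short DNA elements near its target genes. Cyp1a1 and Cyp1b1 encode enzymes that oxidise many of these ligands, and Cyp1a1 is widely used as a readout of AHR activity. AHRR competes with AHR for ARNT, and TIPARP modifies AHR with ADP-ribose, so both limit the receptor that induces them. Nqo1 encodes a quinone reductase that both AHR and the oxidative stress factor NRF2 can induce.

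The promoters of the 2 Cyp1 genes and of Nqo1 are shown because they differ in the core of the AHR element. RefSeq windows (build GRCm38.p6) from 250 bases before to 50 bases after the start site were at hand for 6 of the 7 genes, the exception being Ahr. The core was searched as GCGTG on both strands, so also as CACGC. It was present in 5 of the 6 windows, and in 32.4% of all 32851 windows of the same length. The exception was Nqo1, and bases outside the windows were not searched for any gene. Ahrr held 3 matches, the other 4 genes 1 each. Arnt, Tiparp and Ahrr, which also held the core and overlapped between saline and LPS, are not printed. The TATA box letters TATAAA were present on the sense strand in Cyp1a1 and Nqo1, and on either strand in 13.6% of all windows. In the lines that follow, capitals mark a match to either motif in the bases before the start site, written 5′ to 3′ along the gene.
Cyp1a1 (chr9:57697363-57697612, plus strand): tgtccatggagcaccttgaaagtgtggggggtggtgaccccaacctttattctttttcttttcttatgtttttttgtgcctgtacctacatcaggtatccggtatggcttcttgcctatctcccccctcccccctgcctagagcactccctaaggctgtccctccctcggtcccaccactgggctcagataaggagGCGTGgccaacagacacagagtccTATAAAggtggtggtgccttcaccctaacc
Cyp1b1 (chr17:79715062-79715311, minus strand): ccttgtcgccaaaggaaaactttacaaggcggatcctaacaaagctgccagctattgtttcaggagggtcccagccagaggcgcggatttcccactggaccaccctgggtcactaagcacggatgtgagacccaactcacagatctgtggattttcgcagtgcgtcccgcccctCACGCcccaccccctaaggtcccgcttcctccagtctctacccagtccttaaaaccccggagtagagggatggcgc
Nqo1 (chr8:107403207-107403455, minus strand): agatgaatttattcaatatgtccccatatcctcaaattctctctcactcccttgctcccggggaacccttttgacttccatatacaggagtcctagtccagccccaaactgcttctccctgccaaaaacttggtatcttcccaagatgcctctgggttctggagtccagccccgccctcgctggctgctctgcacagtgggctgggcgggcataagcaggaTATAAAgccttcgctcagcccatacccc
The core stood at -54 to -50 in Cyp1a1, counted from the first base before the start site as -1, and at -76 to -72 in Cyp1b1. The Cyp1a1 stretch is intronic with respect to a longer transcript in GENCODE, whose Cyp1a1 gene spans chr9:57687928-57703824. A match to these letters is not evidence of AHR binding in these cells, which was not measured.

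In the LPS group, Cyp1a1 and Ahr were lower than in the saline group and Nqo1 was higher, with no overlap between the groups. The amount of Cyp1a1 mRNA differed most, by 17.8-fold. Arnt differed little. The following values are FPKM, that is, fragments per kb of gene length, scaled to library size by the authors. In a bulk sample, fewer cells of a type and less RNA per cell cannot be told apart.

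Before these values, one library has to be described. Saline 1 stood apart from the other 3 saline libraries across the transcriptome. The chi-square per gene was 84.1 to 95.9 against each of them, compared with 7.28 to 31.7 among the other 3. Between pairs of LPS libraries it was 16.9 to 133, so distances of that size were also found there. The summed expression of 8 neutrophil marker genes was 1380 FPKM in saline 1, and that in saline 2, 3 and 4 was 69.5, 307 and 74.1 FPKM. Saline 1 was also far from the other saline libraries in Ahr, Tiparp and Cyp1b1. Values of the 7 genes that rest on it, and others that move much without it, are given with and without it.

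Cyp1a1 (ENSMUSG00000032315) was expressed at 44.5, 36.9, 23.3 and 44.0 FPKM in saline 1 to 4, from 1161 to 2411 reads. In the 6 LPS libraries its lowest, median and highest values were 1.46, 2.06 and 2.96 FPKM, from 66 to 157 reads. No LPS library came near the lowest saline library. The means were 37.2 ± 9.86 (SD, n = 4) and 2.09 ± 0.650 FPKM (SD, n = 6). The log2 difference of FPKM + 1 was -3.61 (SE 0.21), and it was -3.51 (SE 0.22) without saline 1.

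**Figure D1:**
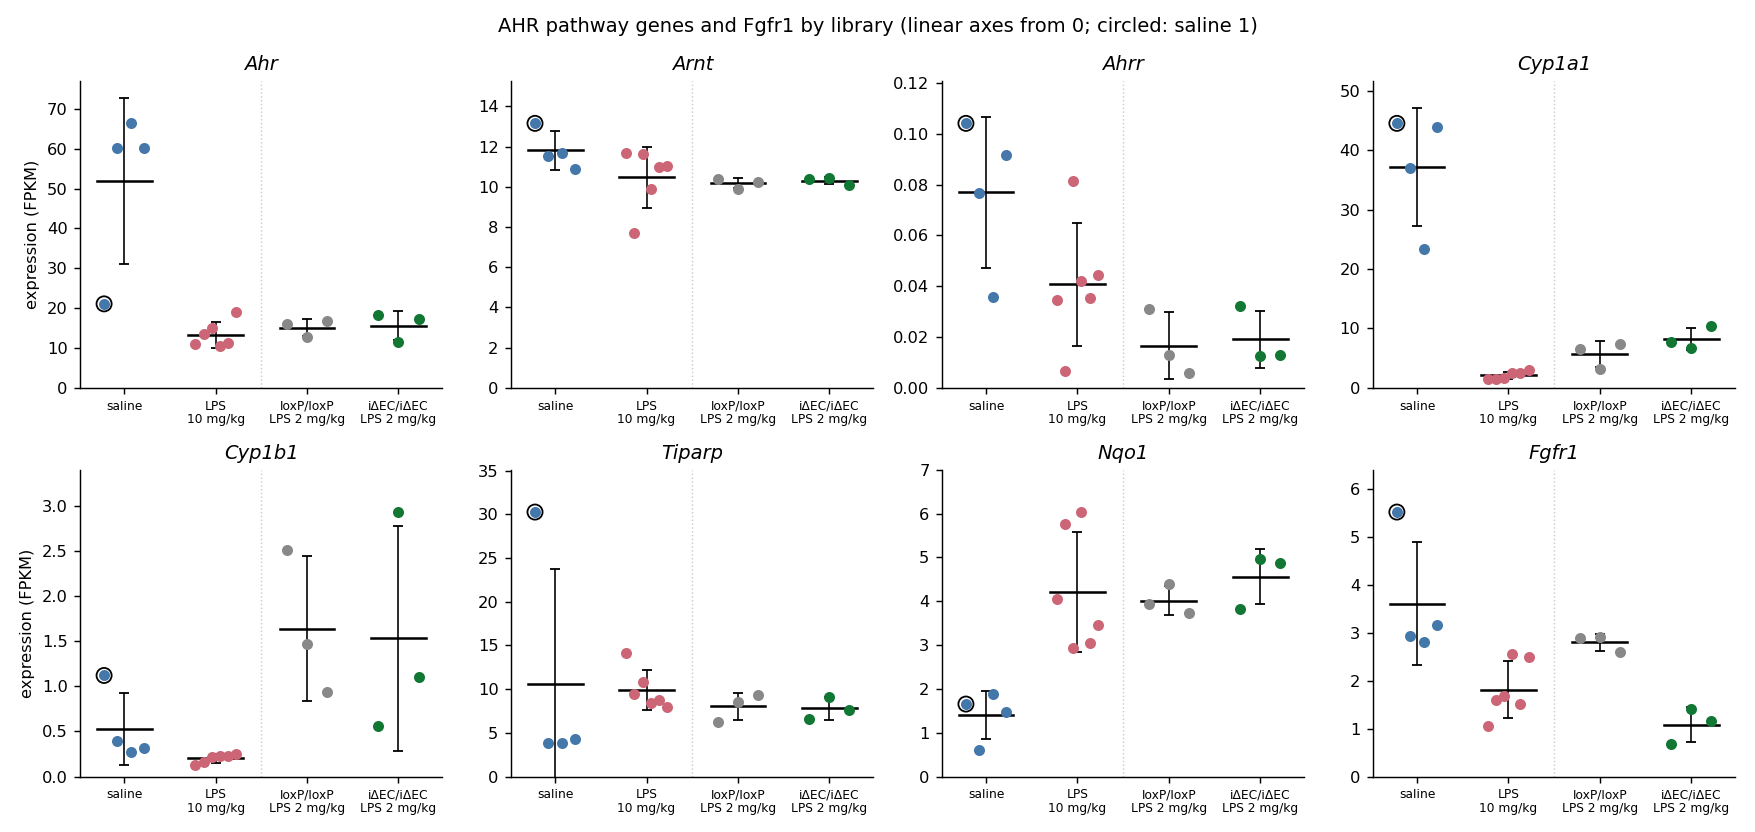
Expression of the 7 AHR pathway genes and of Fgfr1 in each of the 16 libraries, in FPKM on linear axes from 0; the dotted line parts the 2 experiments, which were normalised separately. Points are libraries, lines are means, bars are SD cut at 0, and circles mark saline 1. Cyp1a1 sits between 23.3 and 44.5 FPKM in saline and between 1.46 and 2.96 FPKM in LPS, while Fgfr1 alone is apart between the 2 genotypes.

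Cyp1b1 (ENSMUSG00000024087, chr17:79706953-79715041, minus strand), the other AHR-inducible enzyme of the family found in these cells, was much less abundant. It was at 1.12, 0.397, 0.273 and 0.317 FPKM in saline 1 to 4, from 25 to 76 reads. The LPS libraries ranged from 0.127 to 0.246 FPKM with a median of 0.221 FPKM, from 12 to 24 reads. The groups did not overlap, although saline 3 at 25 reads and LPS 6 at 24 reads were close. The mean over both groups was below the minimum of 0.5 FPKM for the fit, so no log2 difference was fitted. By means, Cyp1b1 was 2.62-fold lower in LPS, and 1.64-fold lower without saline 1. Cyp1a2, the third gene of the family, was at 0.0751 and 0.0757 FPKM in saline 1 and saline 4 and was listed at 0 in the other 8 libraries of this experiment.

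The receptor itself, Ahr (ENSMUSG00000019256, chr12:35497974-35535038, minus strand), was at 21.1 FPKM in saline 1 and at 60.2, 66.3 and 60.2 FPKM in saline 2, 3 and 4. In LPS it ranged from 10.4 to 18.9 FPKM with a median of 12.3 FPKM. The groups did not overlap, but saline 1 lay next to the highest LPS library and far below the other saline libraries. The log2 difference was -1.79 (SE 0.30) with all libraries, or 3.90-fold lower by means. Without saline 1 it was -2.17 (SE 0.17), or 4.67-fold lower. In saline 1 the low Ahr value stood beside a Cyp1a1 value of 44.5 FPKM, the highest of the 10 libraries.

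Arnt (ENSMUSG00000015522, chr3:95434388-95497240, plus strand), which is also the partner of the hypoxia factors, was at 13.2, 11.5, 11.7 and 10.9 FPKM in saline 1 to 4. The LPS libraries ranged from 7.69 to 11.7 FPKM with a median of 11.0 FPKM. The groups overlapped, and the log2 difference was -0.17 (SE 0.12). It became 0.55 when the libraries were scaled to equal endothelial marker expression, so its direction depended on the scaling. The ratio of Ahr to Arnt in the same library, free of library scaling, was 1.60 in saline 1 and 5.23 to 5.67 in the other saline libraries. In LPS it was 0.941 to 1.74. The ratio of Cyp1a1 to Ahr was 0.352 to 2.11 in saline, or 0.352 to 0.730 without saline 1, and 0.109 to 0.245 in LPS. The groups did not overlap, so Cyp1a1 was lower relative to its receptor in each LPS library.

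Ahrr (ENSMUSG00000021575, chr13:74211118-74292331, minus strand) was hardly detected. It was covered by 6 to 17 reads in saline and 1 to 14 reads in LPS, at or below 0.104 FPKM in every library. The means were 0.0769 and 0.0407 FPKM, the groups overlapped, and the gene was below the minimum for a test.

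Tiparp (ENSMUSG00000034640, chr3:65528410-65555518, plus strand) was at 30.3 FPKM in saline 1, and at 3.84, 3.84 and 4.33 FPKM in saline 2, 3 and 4. The LPS libraries ranged from 7.90 to 14.1 FPKM with a median of 9.10 FPKM. With all libraries the groups overlapped and the log2 difference was 0.44 (SE 0.46). Without saline 1, every LPS library was above every saline library and the difference was 1.10 (SE 0.16). Saline 1 thus decided whether Tiparp differed.

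Nqo1 (ENSMUSG00000003849, chr8:107388225-107403206, minus strand) was at 1.65, 0.611, 1.87 and 1.47 FPKM in saline 1 to 4, from 21 to 52 reads. In LPS its lowest, median and highest values were 2.93, 3.75 and 6.04 FPKM, from 83 to 165 reads. All 6 LPS libraries were above all saline libraries, by 3.00-fold in means. The log2 difference was 1.11 (SE 0.22), and 1.17 (SE 0.24) without saline 1.

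Of the 7 genes, 5 passed the expression minimum. A gene was called with a Benjamini-Hochberg adjusted p of at most 0.05 over all tested genes (limma) and an absolute log2 difference of at least 1. As a description only, 1 of the 7 genes was past both limits in the higher direction (Nqo1) and 2 in the lower direction (Ahr, Cyp1a1). Nqo1 was under the size limit with scaling to total reads, at 0.98, and without saline 2, at 0.93. Over all 14893 genes tested, 11.9% were called higher and 6.79% lower. The groups did not overlap for 1 of the 7 genes in the higher direction and 3 in the lower direction. Over all tested genes the shares were 22.7% and 16.7%. The 3 lower genes include Cyp1b1, which was below the minimum for the fit and so is not part of those shares. Since the genes were chosen on results of this contrast, nothing is read from these counts.

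By means in saline, the order per kb of gene length was Ahr, Cyp1a1, Arnt, Tiparp, Nqo1, Cyp1b1 and Ahrr. The ranges of Ahr and Cyp1a1, of Arnt and Tiparp, and of Nqo1 and Cyp1b1 overlapped, and the other neighbours were apart. Without saline 1 the order was the same and all neighbours were apart. In LPS the order was Ahr, Arnt, Tiparp, Nqo1, Cyp1a1, Cyp1b1 and Ahrr. There the ranges of Ahr, Arnt and Tiparp overlapped from one to the next, as did those of Nqo1 and Cyp1a1. Cyp1a1 was thus directly after Ahr in saline and after Nqo1 in LPS.

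The cell mixture differed between the groups as well. The 10 endothelial markers were abundant in every library, and Cldn5, a tight junction gene, led the list in saline with 938 FPKM or more. Their mean log2(FPKM + 1) was 7.66 to 7.89 in saline and 6.25 to 7.37 in LPS, a difference of -0.77 without overlap. The 6 leukocyte markers, among them Ptprc, which encodes the CD45 antigen, were higher in LPS by 3.12 on the same scale. The summed leukocyte expression was 79.2 to 262 FPKM in saline and 924 to 2244 FPKM in LPS. The 8 macrophage markers were higher by 3.50, with a sum of 426 to 1291 FPKM in saline and 2398 to 5470 FPKM in LPS. Lyz2 was the most abundant of them in saline. Both lists were without overlap. The 8 neutrophil markers were higher by 2.65, with overlap because of saline 1, and by 3.33 without it. S100a9 led the list in each saline library.

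The other marker lists overlapped between the groups. Their differences were -1.01 for lymphocytes, -0.71 for epithelium, -0.47 for fibroblasts and -0.38 for mural cells. Without saline 1 the epithelial and mural differences were -0.39 and -0.17. At most 1 marker of any list was at 0 in a library. With the libraries scaled to equal endothelial marker expression, the differences of Cyp1a1, Ahr and Nqo1 were -2.95, -1.04 and 1.62. That scaling moved the median of all genes from 0.01 to 0.60. The part of the cell mixture in these differences was not tested.

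**Figure D2:**
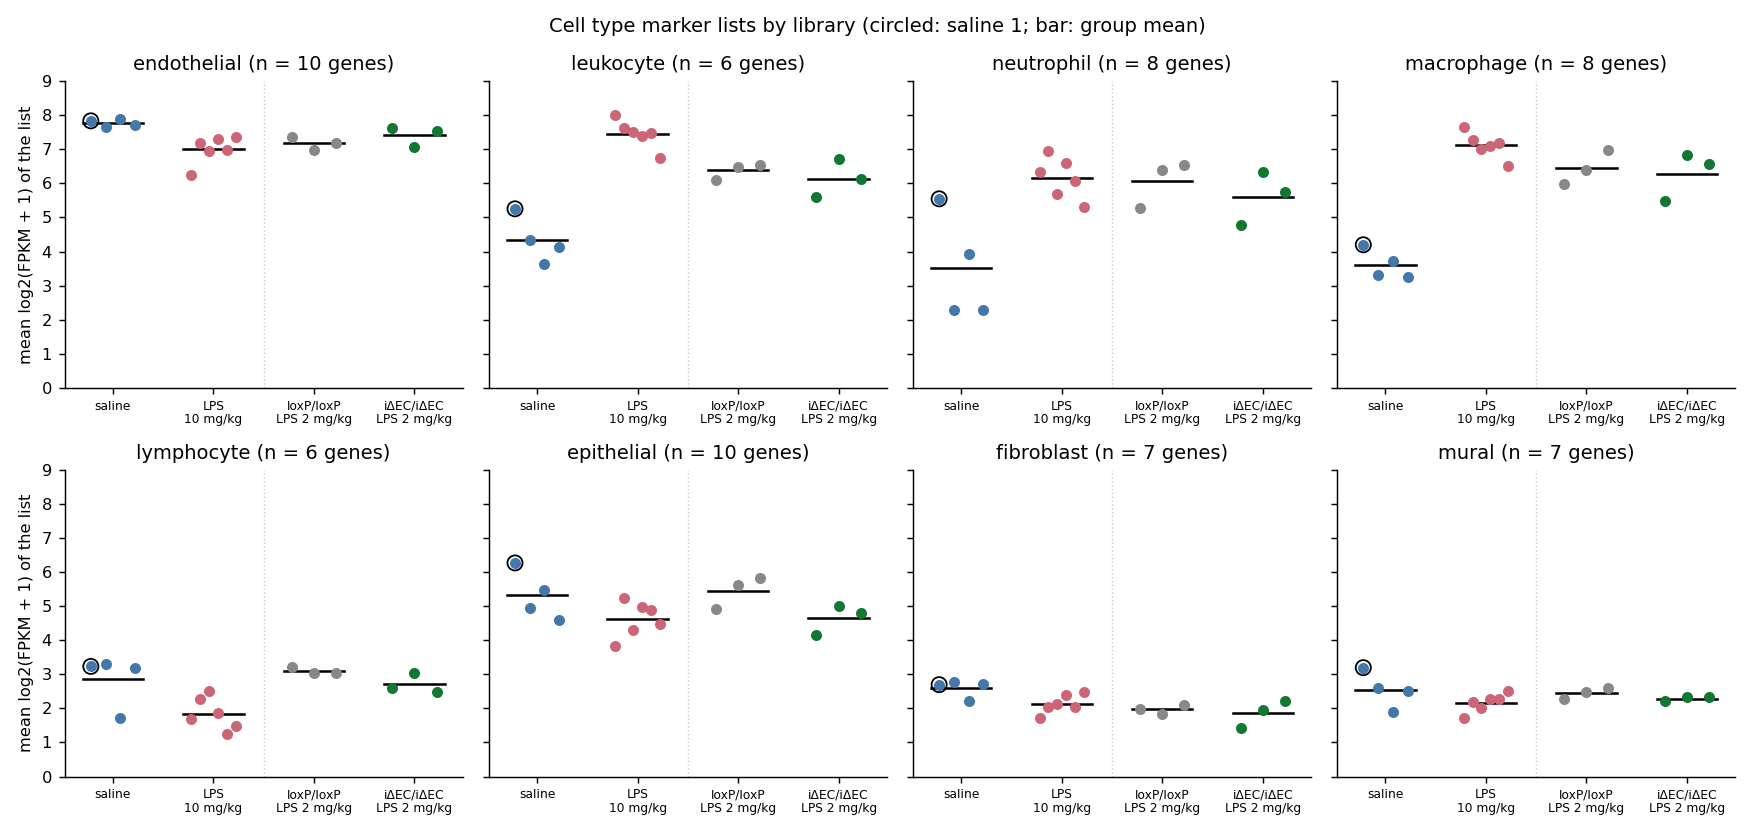
Mean log2(FPKM + 1) of 8 cell type marker lists in each library, by group; points are libraries, bars are group means and circles mark saline 1. Endothelial markers are lower and leukocyte and macrophage markers higher in LPS than in saline without overlap, and saline 1 lies among the LPS libraries for neutrophil markers.

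The genes around the receptor were described by 8 lists with 155 genes in all, of which 67 passed the expression minimum. In LPS, 16 of them rose and 5 fell by the same rule for calls. The background was 11.9% higher and 6.79% lower. The lists were chosen with earlier results of these data known, so their counts are a description and no enrichment is read from them. Without saline 1, 17 were called higher and 4 lower, with Cyp7b1 gained and Cyp2f2 lost. With the endothelial scaling 27 were higher and 1 lower, and over all genes 4642 were higher and 184 lower, compared with 1768 and 1011 as deposited.

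Among the 4 chaperones that hold AHR in the cytosol, 1 rose and 3 did not pass. Hsp90aa1, the inducible HSP90 gene, was at 50.3, 18.8, 20.0 and 18.1 FPKM in saline 1 to 4 and at 55.7 to 88.8 FPKM in LPS, a log2 difference of 1.52 (SE 0.26). All LPS libraries were above all saline libraries, and saline 1 was close to them. Without saline 1 the difference was 1.86 (SE 0.14). Hsp90ab1, the constitutive and most abundant gene of the list, was at 565, 208, 222 and 229 FPKM in saline and at 332 to 454 FPKM in LPS, with overlap through saline 1 alone. Its log2 difference was 0.49 (SE 0.27), and 0.83 (SE 0.16) without saline 1. The median log2 difference of the list was 0.71, and that of all genes was 0.01.

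Of 9 factors that compete for or share ARNT, 3 could be tested, 1 rose and 1 fell. Hif1a, the hypoxia factor also induced in inflammation, was at 14.6, 10.9, 10.2 and 10.5 FPKM in saline and at 30.4 to 56.6 FPKM in LPS. Its log2 difference was 1.89 (SE 0.17). Leukocyte and macrophage markers were higher by 3.12 and 3.50 in the same libraries, and their part in the rise of Hif1a was not tested. Epas1, the hypoxia factor HIF-2α typical of endothelium, was at 1384, 1193, 1305 and 1318 FPKM in saline and fell to between 341 and 844 FPKM in LPS, a log2 difference of -1.17 (SE 0.25). Neither gene overlapped between the groups. Of the 10 endothelial markers 4 were called lower in the same libraries, and their part in the fall of Epas1 was not tested. Scaled to equal endothelial marker expression, 1 gene of all 8 lists was called lower, compared with 5 as deposited.

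Of 12 other AHR targets, 6 were tested, 3 rose and none was called lower. The median log2 difference was 0.90. Aldh3a1, at 0.195 FPKM on average in saline and 0.953 FPKM in LPS, and Serpinb2 reached the expression minimum only through the LPS group. That median therefore says little. Slc7a5, the amino acid transporter that also brings in tryptophan products, was at 0.423 to 1.92 FPKM in saline and 3.96 to 12.4 FPKM in LPS, a difference of 2.06 (SE 0.28). Serpinb2, the plasminogen activator inhibitor PAI-2, was at 0 to 0.281 FPKM in saline and 1.68 to 5.06 FPKM in LPS, a difference of 1.65 (SE 0.21). It reached the expression minimum only through the LPS group, so its call says little. Nfe2l2, which encodes NRF2, was at 25.5 to 34.5 FPKM in saline and 56.2 to 74.5 FPKM in LPS, a difference of 1.12 (SE 0.13). Xdh, xanthine dehydrogenase and the most abundant of the list in saline, was at 76.7 to 97.4 FPKM in saline and 48.8 to 72.3 FPKM in LPS. Its log2 difference of -0.54 (SE 0.14) was below the size for a call, although the groups did not overlap. Leukocyte and macrophage markers were higher by 3.12 and 3.50 in the same libraries, and their part in the rise of the 3 genes was not tested.

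The 12 NRF2 targets, which protect against oxidants and include no member of the 7 genes, were all tested. Among them 9 rose and none was called lower, with a median log2 difference of 1.88. Hmox1, heme oxygenase 1, was at 12.8, 6.92, 7.83 and 7.98 FPKM in saline and at 187 to 307 FPKM in LPS, a difference of 4.67 (SE 0.19). Gsr, glutathione reductase, was at 50.1, 11.1, 20.1 and 11.4 FPKM in saline and at 105 to 291 FPKM in LPS, a difference of 3.22 (SE 0.39). Slc7a11, the cystine transporter, differed by 2.99 (SE 0.39), and Osgin1, an oxidative stress response gene, by 2.62 (SE 0.50). Slc7a11, at 0.308 FPKM on average in saline, reached the expression minimum only through the LPS group, so its call adds little to the count. In all 4 of these genes, saline 1 was the highest saline library. Without saline 1 the differences were 4.85 for Hmox1, 3.67 for Gsr, 3.23 for Slc7a11 and 3.20 for Osgin1. Leukocyte and macrophage markers were higher in the same libraries, although the isolation was meant to remove cells with CD45, and their part in these changes was not tested.

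Of 10 genes that make or degrade tryptophan-derived ligands, 4 were tested and 0 were called, with a median log2 difference of -0.72. The adjusted p of limma passed for 2 of them, with differences smaller than 1. Kmo, at 0.484 FPKM on average in LPS, reached the expression minimum only through the saline group, so the median of that list says little. Of the 4 electron donors of the P450 enzymes 0 were called and 1 passed the adjusted p alone, with a median of 0.01. Cyb5r3, the most abundant donor at 85.2 to 93.2 FPKM in saline, was at 46.9 to 92.3 FPKM in LPS with overlap. Of the 14 relatives of Tiparp in the PARP family 0 were called and 4 passed the adjusted p alone, with a median of 0.04.

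**Figure D3:**
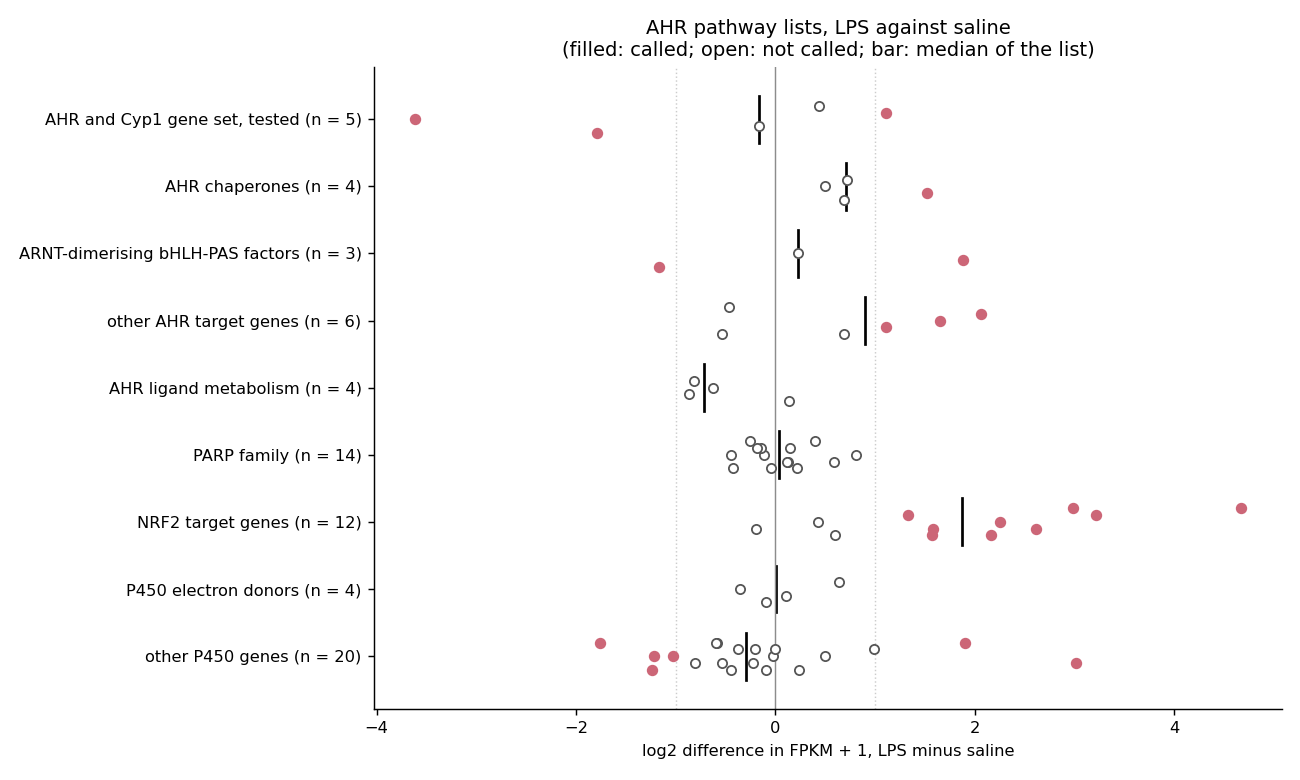
Log2 difference of FPKM + 1 between LPS and saline for each tested gene of the AHR and Cyp1 gene set and of 8 pathway lists; filled points were called, open points were not, the black bar is the median of a list and dotted lines mark a difference of 1. Of the NRF2 targets 9 of 12 lie right of the line at 1, while Cyp1a1 is the leftmost point at -3.61.

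The remaining P450 genes did not share one direction. Of 91 such genes 20 were tested, 2 rose and 4 fell, with a median log2 difference of -0.30. Cyp4f18, which inactivates leukotriene B4 in neutrophils, was at 22.1, 6.70, 5.04 and 7.18 FPKM in saline 1 to 4 and rose to between 53.4 and 96.1 FPKM in LPS, by 3.02 (SE 0.32), or 3.44 (SE 0.18) without saline 1. Cyp4f16 rose from 4.41 to 9.35 FPKM to between 15.6 and 33.6 FPKM, by 1.90 (SE 0.22). In the same libraries leukocyte markers were higher by 3.12, and neutrophil markers by 2.65 with overlap between the groups. Their part in the rise of these 2 genes was not tested.

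Cyp2d22 fell from 43.9 to 59.5 FPKM in saline to between 9.34 and 17.6 FPKM in LPS, a log2 difference of -1.76 (SE 0.16). Cyp4b1, the most abundant P450 gene of the lung EC fraction, fell from 363 to 658 FPKM to between 106 and 250 FPKM, a log2 difference of -1.22 (SE 0.27). The endothelial marker level differed by -0.77 in the same libraries, and its part in these falls was not tested. With endothelial scaling, 1 gene of all 8 lists was called lower, compared with 5 as deposited. Cyp2f2, a gene of airway club cells and one of the epithelial markers, was at 6.27, 3.01, 1.66 and 1.53 FPKM in saline and at 0.275 to 0.966 FPKM in LPS. Its difference of -1.24 (SE 0.27) was -0.92 (SE 0.18) without saline 1, which ended the call. Cyp2j9, named after its values were seen, was the fourth gene that fell, with -1.02 (SE 0.23). Its groups overlapped, and it was no longer called in 5 of the 10 fits that left out 1 library, at -0.97 to -0.92, nor with quantile normalisation or endothelial scaling, at -0.97 and -0.54. None of these P450 genes differed as much in the lower direction as Cyp1a1, but the difference between Cyp1a1 and the others was not tested.

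**Figure D4:**
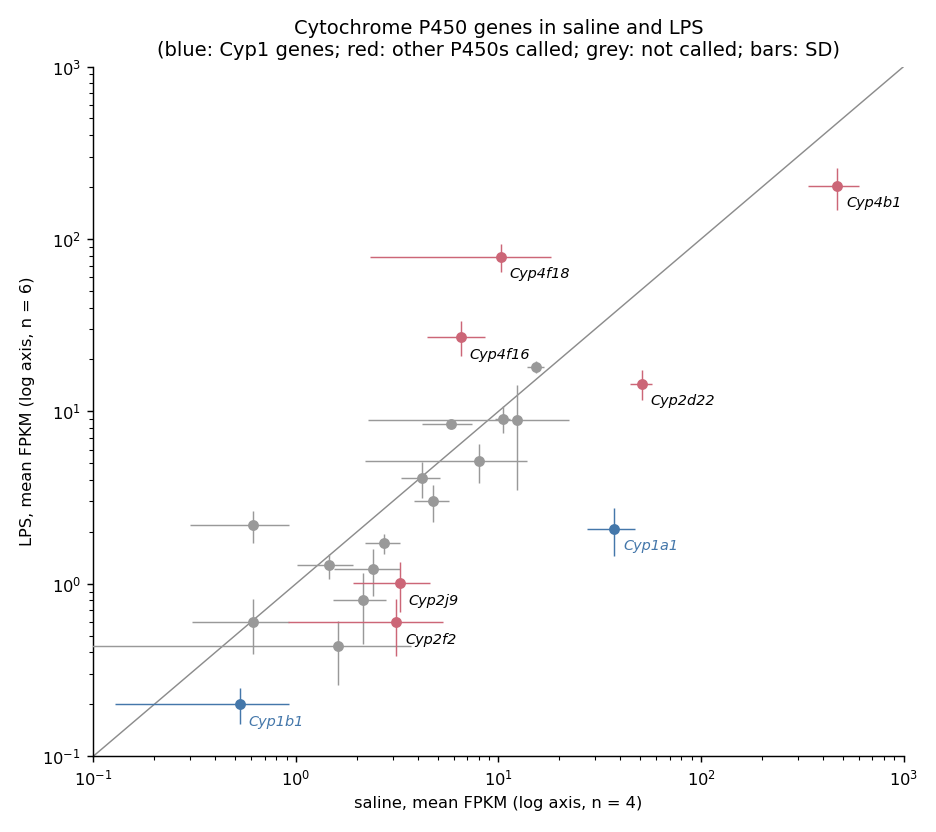
Mean FPKM of the P450 genes in LPS against saline on log axes, with SD bars that run off the axis where they pass its lower end; the line marks equal values. Cyp1a1 lies far below the line at 37.2 and 2.09 FPKM, and Cyp4f18 and Cyp4f16 lie above it.

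Over the 10 libraries of the first experiment, the gene whose log2(FPKM + 1) was most like that of Cyp1a1 was Edc3, an mRNA decapping factor, with a Pearson r of 0.99. Edc3 (chr9:57708540-57752499, plus strand) is the next gene downstream on the same strand, with a gap of 4716 bases to the annotated end of Cyp1a1. It was at 12.5, 11.7, 11.3 and 12.3 FPKM in saline and at 7.60 to 8.68 FPKM in LPS, a much smaller difference of -0.52. The following genes were Agap1, Ypel2, Dtx3 and Edn3, each also with r = 0.99. In total 913 of 14892 genes had r above 0.9, and all of these values share the split of the libraries into saline and LPS. Over the 6 libraries of the second experiment, r with Cyp1a1 was 0.78 for Edc3, 0.52 for Agap1, -0.72 for Ypel2, -0.82 for Dtx3 and 0.45 for Edn3.

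For Cyp1b1 the most similar genes were Mpp3, Nedd4l and Klf15, each with r = 0.98 over the 10 libraries, in which saline 1 had the highest Cyp1b1 value. In the second experiment r was -0.77, 0.08 and 0.48. Of these 8 genes, Edc3 had the highest r in the second experiment, but the r largest in size was -0.82, for Dtx3.

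The second experiment asked whether loss of endothelial Fgfr1 changes ECs under LPS. Fgfr1 (ENSMUSG00000031565, chr8:25513654-25575718, plus strand), the deleted gene, was at 2.90, 2.91 and 2.59 FPKM in loxP/loxP mice and at 0.683, 1.41 and 1.15 FPKM in iΔEC/iΔEC mice. Each iΔEC/iΔEC library was below each loxP/loxP library. The log2 difference was -0.88 (SE 0.16), with a limma adjusted p of 0.960 over all genes and a two-sided exact permutation p of 0.1, the smallest that 3 against 3 libraries allow. The value covers the whole gene, not only the deleted exons.

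None of the AHR pathway genes passed a test between the genotypes, with or without the pairing of same-numbered libraries. Cyp1a1 was at 6.54, 3.21 and 7.39 FPKM in loxP/loxP and at 7.69, 6.68 and 10.4 FPKM in iΔEC/iΔEC mice. The groups overlapped, with the log2 difference at 0.50 (SE 0.29), a limma adjusted p of 0.960 and an exact permutation p of 0.2. Within the 3 pairs of same-numbered libraries, iΔEC/iΔEC was higher each time, by 1.15, 3.47 and 2.98 FPKM. The labels name no pairs, and this pairing was inferred from the same expression data. With the pair as a block the limma adjusted p was 0.597, and an exact sign-flip test of 3 pairs cannot go below 0.25. The ratio of Cyp1a1 to Ahr was higher in all 3 pairs too, by 0.013, 0.333 and 0.158. In the same pairs the endothelial marker level was higher by 0.26, 0.09 and 0.38 on the log2 scale, and the epithelial level fell by 0.77, 0.61 and 1.02. Neutrophil and mural markers were also lower in each pair. The part of these markers in the Cyp1a1 values was not tested. Each of the other 6 genes of the pathway was higher in 2 pairs and lower in 1 by FPKM. For Ahrr these directions say nothing, since its reads in loxP/loxP and iΔEC/iΔEC were 5 and 5, 2 and 2, and 1 and 2. Arnt differed by only 0.0155 FPKM in the first pair. Ahr was at 15.9, 12.7 and 16.7 FPKM in loxP/loxP and at 18.2, 11.4 and 17.3 FPKM in iΔEC/iΔEC mice. Its log2 difference was 0.03 (SE 0.20), and the second library of each genotype was the lowest.

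Cyp1b1 was at 2.51, 1.47 and 0.934 FPKM in loxP/loxP and 0.557, 2.93 and 1.10 FPKM in iΔEC/iΔEC mice. Its log2 difference was -0.13 (SE 0.38). Arnt was at 10.4, 9.90 and 10.2 FPKM in loxP/loxP and at 10.4, 10.4 and 10.1 FPKM in iΔEC/iΔEC mice, and had the smallest residual SD of the 6 fitted genes, 0.03 on the log2 scale. Tiparp was at 6.29 to 9.32 FPKM in loxP/loxP and 6.62 to 9.14 FPKM in iΔEC/iΔEC mice, with a log2 difference of -0.03 (SE 0.17). Nqo1 was at 3.72 to 4.39 FPKM and 3.83 to 4.97 FPKM, with a log2 difference of 0.14 (SE 0.12). Ahrr was covered by 1 to 5 reads in each of the 6 libraries.

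All 7 genes overlapped between the genotypes, and 6 passed the expression minimum. The limma adjusted p of these 6 lay between 0.960 and 0.995. Over all 14944 genes tested, 0.0% were called, 663 had an unadjusted p under 0.05 by limma, and 10.2% did not overlap between the groups. With limma-voom on read numbers the count of calls was 0 too. Of the 155 listed genes 66 were tested, and 0 were called by limma or limma-voom. All 8 marker lists overlapped as well, with the largest difference at -0.80 for epithelial markers. A p that misses the threshold does not show that the genotypes were alike, and the SE of 0.08 to 0.38 gives the precision.

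The values of both experiments are set side by side without a test, since dose, genotype, tamoxifen and normalisation differed between them. Ahr was at 11.4 to 18.2 FPKM in the 6 libraries after 2 mg/kg LPS, at 10.4 to 18.9 FPKM after 10 mg/kg and at 21.1 to 66.3 FPKM after saline. Cyp1a1 was at 3.21 to 10.4 FPKM after 2 mg/kg, at 1.46 to 2.96 FPKM after 10 mg/kg and at 23.3 to 44.5 FPKM after saline. Its ratio to Ahr within a library was 0.253 to 0.600, 0.109 to 0.245 and 0.352 to 2.11 in the same order. Without saline 1 the saline range of this ratio was 0.352 to 0.730. Cyp1b1 was at 0.557 to 2.93 FPKM after 2 mg/kg, at 0.127 to 0.246 FPKM after 10 mg/kg and at 0.273 to 1.12 FPKM after saline, or 0.273 to 0.397 FPKM without saline 1. Nqo1 was at 3.72 to 4.97 FPKM after 2 mg/kg, within its range of 2.93 to 6.04 FPKM after 10 mg/kg.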

How the data were processed

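Per the labels and the methods, the authors aligned reads to mm10 with HISAT2 (2.0.5), counted them with featureCounts (1.5.0-p3) and deposited FPKM for each gene and library, in a table per experiment. The strand setting and annotation release are not given in the sources used here. Unstranded reads of Ahr, Tiparp and Fgfr1 could not be told apart from those of an antisense gene (Gm48236, 4931440P22Rik and Gm16159), and Gm42672 lies within Arnt. Read numbers were computed from FPKM and gene length, and at least 99.996% of nonzero values came out whole within 0.05 read.

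Genes were tested on log2(FPKM + 1) with limma (3.58.1, R 4.3.3) with an intensity trend, in each experiment alone, for genes whose mean reached 0.5 FPKM. The study tested counts with another tool. A gene was called at a Benjamini-Hochberg adjusted p of at most 0.05 and an absolute log2 difference of at least 1. Named genes were the 7 members, Fgfr1, and from each list up to 4 called genes with the largest change and up to 2 genes at or above 50 FPKM in saline, plus the 5 and 3 genes most like Cyp1a1 and Cyp1b1. Aldh3a1, Cyp1a2, Cyp2j9, Cyp7b1 and Kmo were named after their values were seen. The members and lists were chosen with earlier results of these data known. Libraries were labelled as separate samples, and nothing says that each came from 1 mouse, so p-values measure the spread between these libraries. No 2 libraries of a group were copies. Fits were tested on simulated data. In the second experiment the deviations of same-numbered libraries from their group means correlated at 0.25, 0.18 and 0.19 across genes. The numbers were therefore taken to pair the libraries, although the labels name no pairs. Alternatives were another pseudocount, filter, scaling, limma-voom, the replicate block and leaving out each library.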

Additional observations from a re-analysis of the deposited data

Results flagged for a closer look

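Of 30 sets of values examined (the 7 genes and 8 marker lists in the saline and in the LPS group), 6 held a library far from the others by Dixon's criterion, where chance gives about 1 in 20, or 1.5. Saline 1 was far from the other saline libraries in 3 of the 7 genes. It was low in Ahr with 21.1 FPKM, and high in Tiparp with 30.3 FPKM and in Cyp1b1 with 1.12 FPKM. Saline 3 was low in the mean log2 level of the lymphocyte list, with 1.72, and of the fibroblast list, with 2.21. LPS 1 was low in the endothelial list, with 6.25. No explanation was tested for these libraries.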

How the results depend on the processing

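Of 438 values under an alternative setting, 20 had the opposite sign. Of these, 1 was in LPS against saline (Arnt with endothelial scaling) and 19 were between the genotypes, where the differences were small. The 438 values include counts of called genes, which cannot change sign, so the share of 20 does not measure stability. Scaling to equal endothelial marker expression shifted the median of all genes to 0.60 in the first experiment and to -0.18 in the second, and scaling to total reads shifted it to -0.14 in the first. For LPS against saline, the endothelial scaling gave log2 differences of -1.04 for Ahr, 0.55 for Arnt, -2.95 for Cyp1a1 and 1.62 for Nqo1. Arnt was at -0.35 with total reads and -0.36 with quantile normalisation. A pseudocount of 0.1 gave -4.10 for Cyp1a1 and 1.56 for Nqo1, and limma-voom gave -4.15 and 1.68. Genes called higher and lower were 1768 and 1011 as deposited, 4642 and 184 with endothelial scaling, 1373 and 1440 with total reads, 1366 and 1326 with quantile normalisation, and 4399 and 3529 without a limit on the fold. Genes called lower were 1840 with a pseudocount of 0.1 and 2008 with limma-voom. Of the listed genes, 27 and 1 were called higher and lower with endothelial scaling and 26 and 14 without the limit, and 8 were lower with a pseudocount of 0.1. The cause of these shifts was not tested.

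Leaving out each library moved Tiparp between 0.21 and 1.10 for LPS against saline, and the upper value came without saline 1. It was 1.12 with endothelial scaling. Cyp1a1 stayed between -3.81 and -3.51, Ahr between -2.17 and -1.63 and Nqo1 between 0.93 and 1.21. Between the genotypes, differences near 0 changed sign. Ahr was at -0.039 with total reads, -0.015 with quantile normalisation and -0.21 with endothelial scaling, Arnt at -0.044, -0.0034 and -0.20, and Nqo1 at -0.052 with endothelial scaling. Without each library in turn, Ahr lay between -0.089 and 0.22, Cyp1b1 between -0.50 and 0.17 and Tiparp between -0.18 and 0.069. With the replicate block the adjusted p of Cyp1a1 between the genotypes was 0.597 in limma, and the block changed no call there. In the first experiment the numbers did not pair the libraries (correlations of 0.10, -0.16, -0.21 and -0.12), and a replicate block gave 1925 and 1063 genes called higher and lower. Depth limits Ahrr and Cyp1b1, which rest on few reads.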
